A study of Mus musculus with 3 samples.

Results

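Rn45s is the name of the precursor transcript of ribosomal RNA, and the reads described here are those whose left end lay in the 10 kb window of its copy on chromosome 17, at chr17:39980001-39990000 of the deposited files. It is 1 window of the 119251 windows of 10 kb that held a read in any library. The window was chosen by its read counts in these same libraries, and its name and assembly (mm9 naming) were given with that choice, so its being read at all is no finding. Each of the 3 libraries is the only one of its group. The first is an RNA immunoprecipitate with a rabbit polyclonal antibody against MIWI2 (PIWIL4) from MEL cells (ATCC TIB-55), a line of mouse erythroblasts transformed by Friend virus. The second is the same kind of immunoprecipitate from splenocytes that were not fractionated, so it holds every cell type of the spleen, taken from C57Bl6/J mice aged 10 weeks. The third is testis RNA of the same strain and age without an antibody, cut from an 18% polyacrylamide gel at the band near 29 nt. Neither an input nor a control immunoprecipitate was analysed here, so what the antibody enriched was not tested. The files pair no read with a gene, so the cell types were not checked against marker genes.

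The ribosomal RNA genes are transcribed in the nucleolus into 1 long precursor, from which spacers are cut away to leave the 18S, 5.8S and 28S RNAs. The 18S RNA becomes the RNA of the small ribosomal subunit, and its final 3′ end is cut in the cytoplasm. Ribosomal RNA is the most abundant RNA of most cells, and its pieces are common in small RNA libraries, both as random breakdown products and as fragments with recurring ends. MIWI2 is a PIWI protein known from fetal male germ cells, where it carries piRNAs into the nucleus and directs DNA methylation of transposons.

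Both immunoprecipitates had reads in the window at nearly the same level, and testis had few. MEL had 2120 of its 823452 reads there, or 2574.5 reads per 1000000 mapped reads (RPM, exact Poisson 95% interval 2466.1 to 2686.5). Spleen had 1635 of 692011, or 2362.7 RPM (2249.5 to 2480.0). Testis had 17 of 1143785, or 14.9 RPM (8.66 to 23.8). These intervals, and the exact Clopper-Pearson intervals of the shares below, cover counting error only, since copies made by PCR cannot be told from separate molecules. By number of reads the window ranked 55 of 75881 windows in MEL, 51 of 58409 in spleen and 865 of 24441 in testis. The 10 kb window after it and the second window before it held 0 reads in each library, where a count of 0 allows up to 3 reads.

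The reads lay on a sharply bounded span inside the window. The most-read left end near its start was position 39983298 in spleen, with 131 reads, and the most-read right end near its finish was position 39985146 in MEL, with 137. From the one to the other is 1849 nt, and chr17:39983298-39985146 is called the span here, a stretch chosen after the values were seen. It held 2083 of the MEL reads whole, or 98.3% (97.6 to 98.8), 1592 of the spleen reads, or 97.4% (96.5 to 98.1), and 11 of the 17 testis reads. Reads wholly outside the span numbered 15 in MEL, each on a left end of its own, and 22 in spleen, on 10 left ends. The rest of this window was thus nearly unread in both immunoprecipitates; other parts and copies of the precursor were not analysed here.

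The length of the span equals that of Rn18s-rs5, a copy of the 18S RNA gene that RefSeq places on GRCm38 at chr17:39846354-39848202 as a pseudogene of 1849 bp. GRCm38 is not the build of the files and the builds were not aligned, and the reads carry neither sequence nor strand, so the match is one of length alone. The sequence around the annotated 3′ end of Rn18s-rs5 is shown as the gene of that length; whether the last base of the span is this end was not tested. It is taken from the GENCODE M21 transcript Gm42418-201 on the plus strand of GRCm38, chr17:39848173-39848232, with the last 30 bases of Rn18s-rs5 in capitals and the 30 bases that follow in lower case:

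Rn18s-rs5 end: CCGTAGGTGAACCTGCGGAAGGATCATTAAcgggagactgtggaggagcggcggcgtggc

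Along the span the libraries differed in how much of it was read. MEL reads covered 1597 of the 1849 positions (86.4%), and the longest unread stretch was 80 nt. Spleen reads covered 127 positions (6.87%), with an unread stretch of 897 nt. The 11 testis reads inside covered 96 positions. Of the 100 bins of 100 bp in the window, 31 held a left end in MEL, 11 in spleen and 8 in testis. The 5 most-read bins held 65.0% of the MEL reads (63.0 to 67.1) and 99.4% of the spleen reads (98.9 to 99.7).

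**Figure D1:**
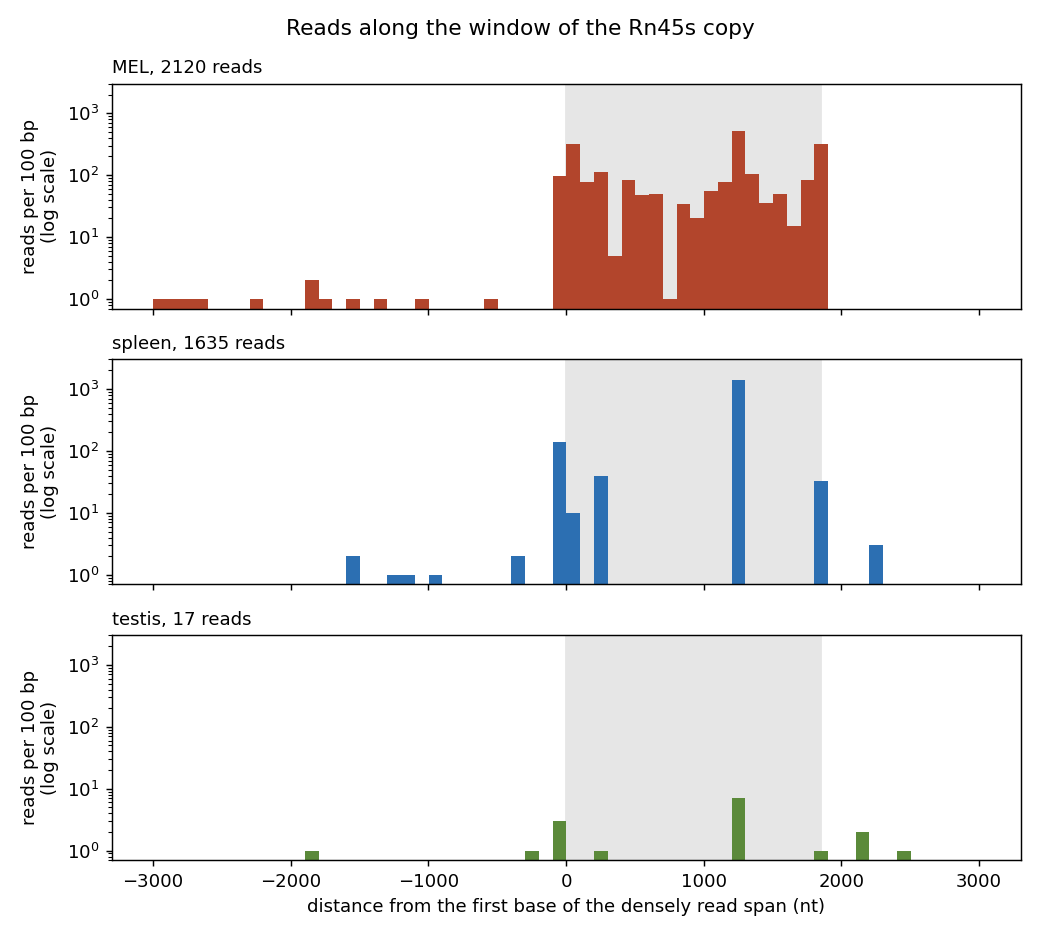
Reads per 100 bp (bars, log scale) along the window in MEL, spleen and testis, by distance in nt from the first base of the span, which is shaded. Bins were laid from the start of the window, so the bin over the span's first base begins before it; MEL bars fill the shaded span, while spleen bars stand at few places, the highest with 1405 reads.

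The most-read 100 bp were the same in both immunoprecipitates. The bin from 39984501 to 39984600 had 525 MEL reads on 46 left ends, which is 24.8% of the MEL reads of the window. It had 1405 spleen reads on 15 left ends, which is 85.9% of the spleen reads. In MEL the next bins were 39985101 to 39985200 with 323 reads, 39983301 to 39983400 with 313, 39983501 to 39983600 with 112 and 39984601 to 39984700 with 106. In spleen they were 39983201 to 39983300 with 137 reads, 39983501 to 39983600 with 40, 39985101 to 39985200 with 33 and 39983301 to 39983400 with 10. Each of the 5 most-read bins of spleen thus held MEL reads too, and MEL had further bins.

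Over all its reads the window was 1.09-fold higher in MEL than in spleen (1.02 to 1.16). That near equality was a sum of opposite differences. In the most-read 100 bp the MEL level was 0.314 of the spleen level (0.284 to 0.347), and over the rest of the window MEL was 5.83-fold higher (5.07 to 6.72). Of the 17 bins with at least 20 reads in the libraries together, MEL was 4-fold or more higher in 14, spleen in 0, and 3 lay within 4-fold. Among all such bins of the genome, MEL was higher by this rule in 37.4% and spleen in 31.8%. Scaled to reads of at least 18 nt, a setting chosen after seeing the data, the counts of the 17 bins were 11 for MEL, 2 for spleen and 4 within 4-fold, where 31.5% and 25.5% of all such bins were higher in MEL and in spleen. The 2 bins higher in spleen were the most-read one and that from 39983201. There the MEL level was 0.117 and 0.220 of the spleen level. The bins from 39984101 and 39984201 were counted within 4-fold, but had 0 spleen reads of that length against 34 and 20 in MEL. With spleen set at 3 reads, MEL was at least 3.89-fold and at least 2.29-fold higher in them, so they may differ by 4-fold or more. The 17 bins belong to 1 window and are not independent of each other. Among 10 kb windows with at least 100 RPM in MEL or spleen, 36.7% were 4-fold or more higher in MEL and 33.1% in spleen, and the Rn45s window was in neither group. In 12 of the 14 bins spleen had 0 reads, while MEL had 20 to 106 reads each and 717 together. With spleen set at 3 reads, MEL was at least 29.7-fold higher in the bin from 39984601 and at least 23.5-fold higher in those from 39983701 and 39985001, and at least 21.3-fold higher in those from 39983401 and 39984401. In the bin from 39983301, with 313 MEL reads and 10 spleen reads, MEL was 26.3-fold higher. In the bin from 39983201, which holds the first base of the span, the MEL level was 0.595 of the spleen level.

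The direction of this comparison depended on which reads were counted. Among reads of at least 18 nt the MEL level was 0.444 of the spleen level, and among reads of 24 to 32 nt it was 0.373, each scaled to the reads of that length in its library. With each distinct pair of start and end counted as 1, MEL was 3.83-fold higher. The spleen library held 73.2% of its reads at 17 nt or less and MEL 34.3%, so the scaling to all reads and that to longer reads differ more in spleen.

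Fixed ends were then set against an even spread. The MEL reads began at 454 distinct left ends and finished at 434 right ends, and 849 distinct intervals were read 2.5 times each on average. The spleen reads began at 41 left ends and finished at 44 right ends, and 123 intervals were read 13.3 times each. The 5 most-read left ends held 20.4% of the MEL reads (18.7 to 22.2) and 73.3% of the spleen reads (71.1 to 75.4). It took 23 left ends to reach 50% of the reads in MEL and 3 in spleen. Left ends with 10 or more reads, called stacks here, numbered 41 in MEL and held 61.9% of its reads (59.8 to 64.0). In spleen 14 stacks held 94.6% (93.3 to 95.6). Left ends with a single read numbered 248 in MEL, or 11.7% of its reads, and 6 in spleen, or 0.367%. MEL therefore showed stacks on a wide scatter of rarely used ends, and spleen showed stacks with little besides.

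**Figure D2:**
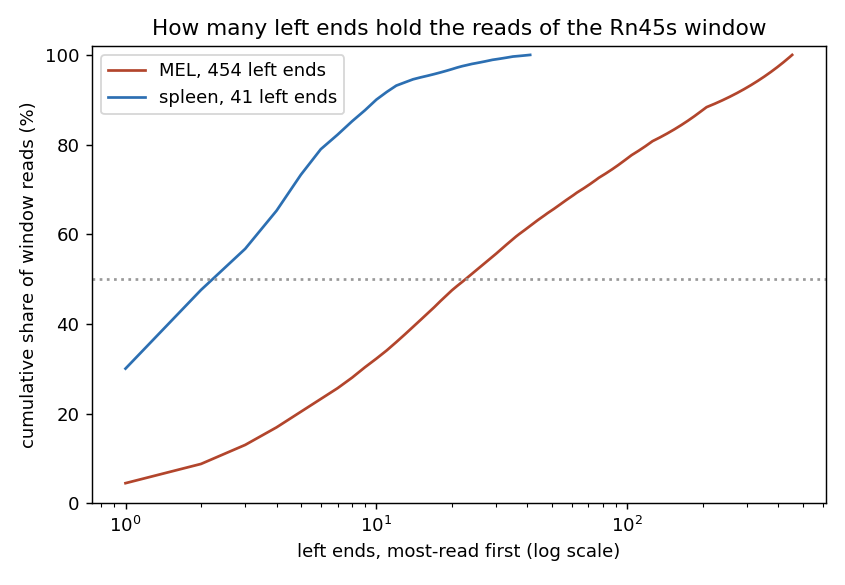
Cumulative share of the window's reads (y axis, %) held by left ends ranked from the most-read (x axis, log scale), for MEL with 454 left ends and spleen with 41. The dotted line marks 50%, which spleen reaches at 3 left ends and MEL at 23.

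Beside other windows with as many reads or more in the same library, the Rn45s window was read at many positions in both. In MEL 54 other windows had at least 2120 reads, with a median of 17 left ends, and 52 of them had fewer left ends than the Rn45s window. Their 5 most-read left ends held a median of 98.5% of the reads, and 53 of the 54 exceeded the 20.4% here. In spleen 50 other windows had at least 1635 reads, with 2 to 31 left ends and a median of 5, so the 41 of the Rn45s window exceeded each of them. The 5 most-read left ends held 95.8% to 100% of the reads in those 50 windows. The spleen reads of Rn45s, narrow beside MEL, thus began at more positions than in these 50 windows, though not than on the mitochondrial chromosome.

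The mitochondrial chromosome, which also gives ribosomal and other abundant transcripts, had a like number of reads. In MEL its 1822 reads began at 226 left ends, and the 5 most-read held 75.2% (73.2 to 77.2), against 20.4% at Rn45s. In spleen its 2372 reads began at 153 left ends, and the 5 most-read held 71.4% (69.5 to 73.2), near the 73.3% at Rn45s. In both libraries 1 mitochondrial left end held 50% of the reads. With 1 library per group, none of these differences has a replicate check.

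Pile-ups were defined, after the values were seen, as stretches covered by at least 1% of the window's reads (in testis by at least 5 reads). There were 19 in MEL, covering 512 nt and touched by 91.8% of the reads (90.5 to 92.9). There were 4 in spleen, covering 103 nt and touched by 99.4% (98.9 to 99.7), and 1 in testis. Some neighbouring MEL pile-ups, such as 39984467-39984481 and 39984483-39984555, were parted by so little that a read could touch both. The narrowest, at 39984839, was 1 nt wide, so the number of MEL pile-ups depends on the depth cut. In 3 of the 19 MEL pile-ups 1 left end held at least 50% of the reads, in 3 a right end did, and in 14 neither did. In spleen 1 of the 4 had such a left end, 2 had such a right end, and 2 had neither. Reads of most pile-ups thus shared a place rather than a single pair of ends.

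At the start of the span the left end was fixed in both immunoprecipitates, and the right end varied more, above all in MEL. Position 39983298 held 83 of the 107 MEL reads centred on chr17:39983298-39983320 (77.6%), 131 of 147 spleen reads (89.1%) and 3 of 3 testis reads. No read in any of the libraries crossed this position from the left. From it the MEL reads ran to 19 right ends, counting all 107 reads, with 28 at position 39983315, which makes a read of 18 nt. The spleen reads ran to 11 right ends, and 88 finished at position 39983320, mostly as reads of 23 nt. Of the 3 testis reads 2 were 32 nt long and 1 was 28 nt long. The same first base was therefore used in the 3 libraries with lengths that differed between them.

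The middle pile-up, which in spleen began 1221 nt into the span, was the largest in each library. Reads centred on its spleen borders, chr17:39984519-39984549, numbered 1405 in spleen, or 2030.3 RPM (1925.5 to 2139.3). In MEL they numbered 486, or 590.2 RPM (538.9 to 645.1), and in testis 7. The MEL pile-up at this place was wider, chr17:39984483-39984555, and was touched by 572 reads. In spleen the most-read left ends were 39984521 with 491 reads, 39984523 with 287, 39984526 with 150 and 39984522 with 139. In MEL they were 39984527 with 95 reads, 39984526 with 91 and 39984528 with 60, and 39984521 had 31. The median left end was 39984522 in spleen and 39984526 in MEL. On the right the most-read end was position 39984544 in both, with 539 reads in spleen and 99 in MEL. These were 38.4% and 20.4% of the reads centred on the spleen borders. The 99 were 17.3% of the wider MEL pile-up. The next right ends were 39984546, 39984543, 39984547 and 39984545 in spleen, with 233, 170, 145 and 111 reads. In MEL position 39984549 had 69 reads, where spleen had 17, and position 39984545 had 66. The libraries thus shared the most-read right end when reads of all lengths were counted. In MEL 26 of its 99 reads were 16 nt long, while the 69 reads at 39984549 were 21 to 28 nt long. Whether 39984544 also leads in MEL among reads of at least 18 nt was not tested. The libraries differed in the most-read left end and in how reads lay over the other right ends.

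The most-read interval of spleen ran from 39984521 to 39984544, was 24 nt long and held 219 reads, or 13.4% of the window (11.8 to 15.1). MEL had 3 reads on it. The intervals 39984523 to 39984544 and 39984521 to 39984547 had 96 and 88 spleen reads, against 3 and 5 in MEL. In the other direction, 39984526 to 39984549, the most-read interval of this pile-up in MEL, had 32 MEL reads and 2 spleen reads. The 7 testis reads here began at 6 left ends between 39984517 and 39984528, and 6 of those 7 had a left end that both immunoprecipitates also had.

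At the end of the span MEL reads most often finished at its last base or the base before it, and spleen lacked both ends. Of the 335 MEL reads in the pile-up there, 137 (40.9%) finished at position 39985146, the span's last base, and 104 at the base before. Spleen had 0 of 1635 reads at either, where a count of 0 allows up to 3, and testis had 0 of 17. The MEL reads reached this end from left ends spread over 39985120 to 39985127 and beyond. The most-read MEL interval of the whole window, 39985127 to 39985145, was 19 nt long and held 66 reads, or 3.11% (2.42 to 3.94). Beside it, 39985120 to 39985146 and 39985121 to 39985146 had 38 reads each. In spleen 33 reads lay across or past the same place, on chr17:39985145-39985171, and began rather than finished there. Their most-read left end was 39985145 with 12 reads and their most-read right end was 39985171 with 15, and MEL had 3 reads centred on this stretch. Among the reads at this place, the end that most often closes MEL reads is thus within 1 nt of the most-read left end of spleen.

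Reads that bridge the end of the span were few in MEL beside the 241 that finished at its last base or the base before. In spleen they were most of the 33 reads at this place. Of the MEL reads 22 held bases on both sides of it, 13 of them with at least 3 bases on either side. Of the spleen reads 21 did, 15 of them with 2 or fewer bases inside the span, and 6 had at least 3 bases on either side. Testis had 0 of 17.

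**Figure D3:**
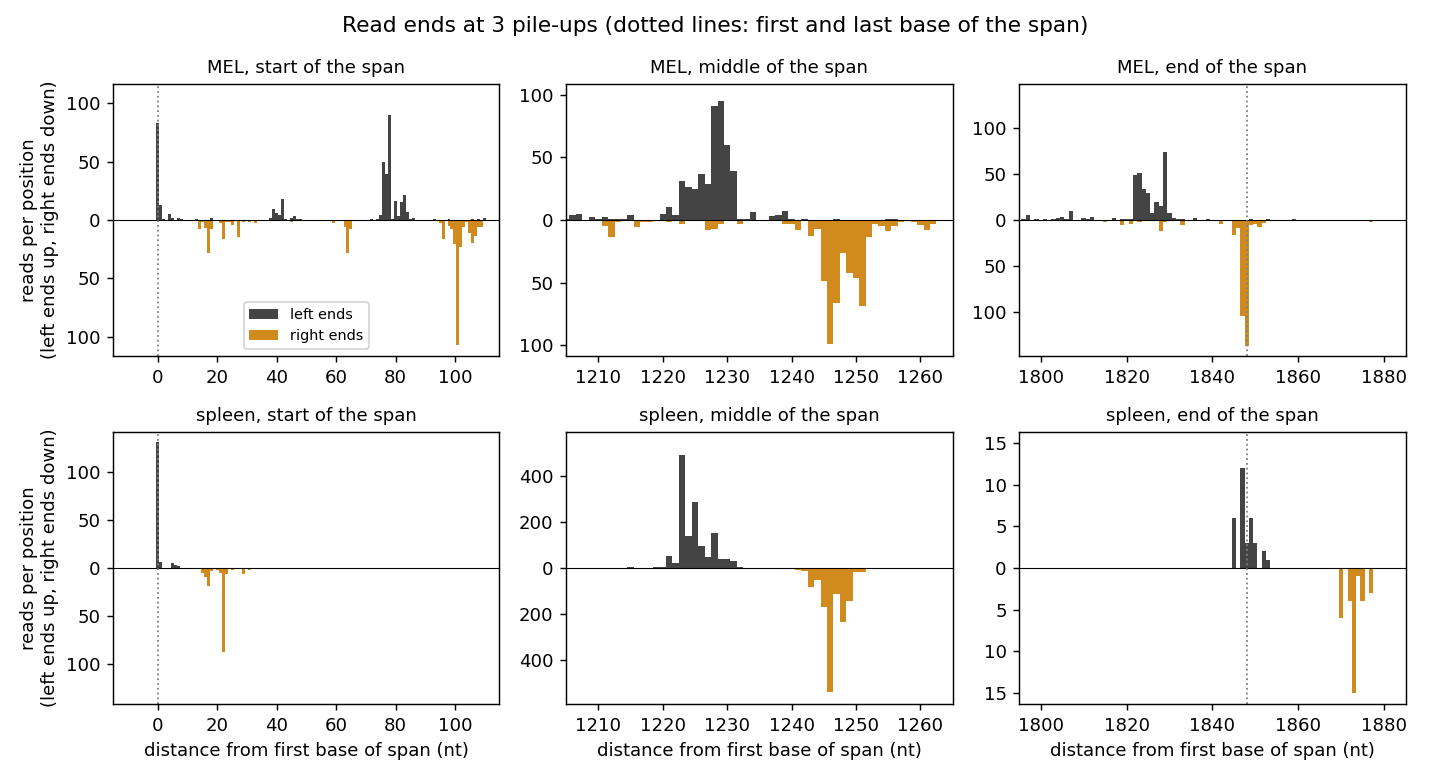
Reads per position by left end (bars upward) and right end (bars downward) in MEL (top) and spleen (bottom) at the start, middle and end of the span, against distance in nt from its first base; dotted lines mark its first and last base, and the y scales differ. At the start both libraries have 1 tall left end, at the end MEL has right ends (137 at the last base) where spleen has left ends (12 at the base before it).

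Other pile-ups were read in MEL alone or in both. A MEL pile-up 76 nt into the span had 252 reads centred on chr17:39983374-39983405, with 90 at left end 39983376 and 107 at right end 39983399, and spleen and testis had 0 there. Its most-read interval, 39983376 to 39983399, was 24 nt long and held 50 reads. The small pile-up of spleen 279 nt into the span, chr17:39983577-39983598, had 39 reads centred on it in MEL and 39 in spleen. Within these borders, set by spleen, position 39983598 was the most-read right end in both, with 20 and 23 reads. The MEL pile-up at this place ran further, to 39983613, and was touched by 88 reads. Its most-read left end was 39983587 with 41 reads, and its most-read right end was 39983613 with 24. Neither position was an end of a spleen read. The places shared by the libraries were thus shared to different degrees.

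Of the 41 left ends of spleen, 24 were also left ends in MEL, or 58.5% (42.1 to 73.7), and they held 1580 spleen reads, or 96.6% (95.6 to 97.5). The same 24 were 5.29% (3.42 to 7.76) of the 454 left ends of MEL and held 580 MEL reads, or 27.4% (25.5 to 29.3). Of the right ends 30 were shared, which is 68.2% of those in spleen and 6.91% of those in MEL. MEL had 26 left ends among reads centred on the 31 nt of the middle pile-up of spleen. Some sharing thus follows from the density of MEL ends, and how much was not tested. Outside the most-read 100 bp the shared share of spleen left ends was 38.5%.

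Read length at the window differed from that of the libraries. In MEL the reads were 14 to 36 nt long, most often 24 nt, with a median of 24 nt against 21 nt in the whole library. In spleen they were 15 to 32 nt long, most often 24 nt, with a median of 23 nt against 16 nt. Reads of 17 nt or less made up 5.52% (4.59 to 6.58) of the MEL reads in the window and 34.3% of that library. In spleen they made up 5.38% (4.34 to 6.59) and 73.2%. Short reads, the most frequent class of the spleen library, were thus rare at Rn45s.

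Reads of 24 to 32 nt, the range that includes piRNAs, made up 50.6% (48.5 to 52.8) of the window in MEL, against 34.9% of the library. In spleen they made up 40.1% (37.7 to 42.5), against 9.45%. In testis 14 of the 17 reads were of this length (82.4%, 56.6 to 96.2), against 93.6% of that library, whose lengths the gel band set in part. The lengths of 29 to 31 nt that dominate testis made up 3.02% of the MEL reads in the window, against 3.04% of that library. In spleen they made up 0.612% of the reads in the window, against 4.60% of that library. Both immunoprecipitates were below the range of 29 to 31 nt in most of their Rn45s reads. Among the windows with as many reads, the 24 to 32 nt share was below that of Rn45s in 25 of 54 in MEL and in 48 of 50 in spleen.

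**Figure D4:**
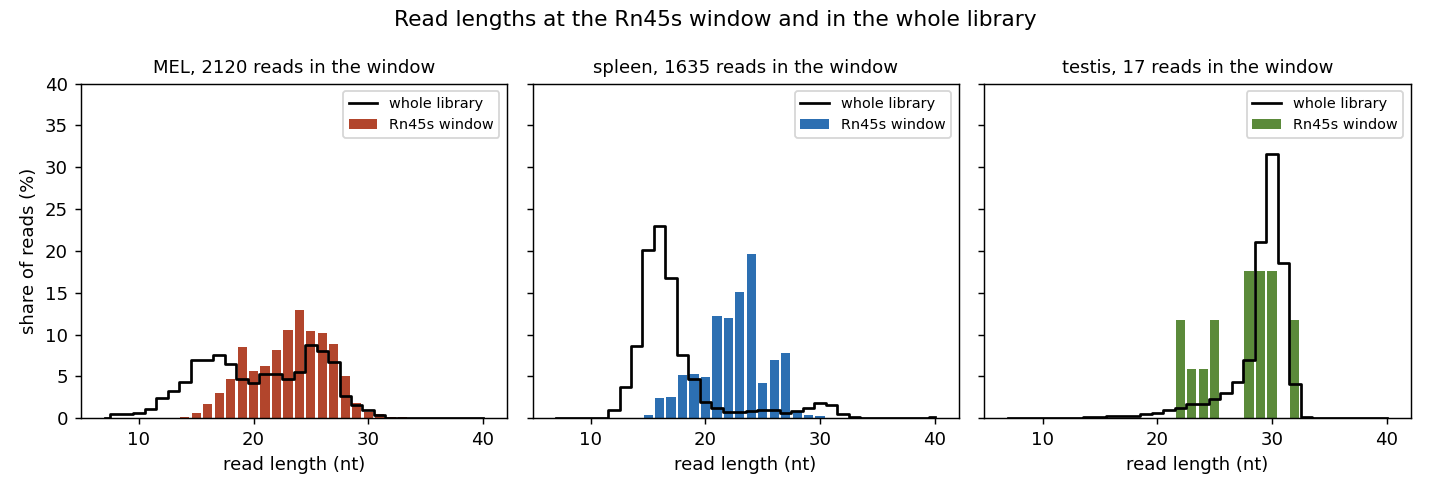
Share of reads (y axis, %) by read length (x axis, nt) for the window (bars) and for the whole library (black line) in MEL, spleen and testis. The bars of both immunoprecipitates are highest at 24 nt, while the spleen library peaks at 16 nt; the testis bars rest on 17 reads.

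Length also varied along the span. In MEL the share of 24 to 32 nt reads was 22.7% in the bin from 39983201, which holds the first base, and 73.8% in the next, from 39983301. It was 34.9% in the bin from 39984501, 85.7% in that from 39985001, most often at 28 nt, and 46.7% in that from 39985101, most often at 19 nt. In spleen it was 5.11% in the bin from 39983201, 42.7% in that from 39984501 and 90.9% in that from 39985101, where 27 nt was the most frequent length. Without the most-read 100 bp the share over the window was 55.8% in MEL and 23.9% in spleen, so the spleen value rests mostly on that bin.

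The 17 testis reads were too few for a profile. They lay at 14 left ends, of which 8 were left ends in MEL and 8 in spleen, and 11 of the reads had a left end found in MEL and 11 one found in spleen. The left ends with more than 1 testis read were 39983298, with 3, and 39984521, with 2, which are the fixed first base of the span and the most-read left end of spleen. Of the 6 reads wholly outside the span, 2 lay before it and 4 after it, up to position 39985771.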

How the data were processed

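The deposited files list mapped reads, 1 line each, with chromosome, start and end. They hold no count, strand, sequence or score, and nothing shows that the authors normalised them. The submitters' processing notes name Bowtie 0.12.7. The build, the options and the handling of adapters and of reads with several matches were not given in the sources used here. Ribosomal RNA has many copies, so the reads of this window may come from any of them. Starts were read as counted from 0 (BED), and positions are printed as counted from 1. Since strand is unknown, left and right ends stand for 5′ and 3′ ends only if the reads are on the plus strand.

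Reads were counted per position, interval, 100 bp bin and 10 kb window and scaled to 1000000 reads of the library (RPM). In ratios a library under 3 reads was set at 3. With 1 library per group no test between groups was made. The counting was tested on simulated reads. The members, positions and pile-ups were chosen with earlier results of these data known. Positions named by rule were the 5 most-read left and right ends, the 5 most-read bins, the 5 bins with the largest ratio each way (2 lay below 1) and testis left ends with at least 2 reads. Alternatives are in the closing section. Python 3.11.15, numpy 2.4.6, pandas 2.3.3, scipy 1.17.1 and matplotlib 3.10.9 were used.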

Additional observations from a re-analysis of the deposited data

Results flagged for a closer look

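Reads in the 10 kb before the window, which the results above do not use, numbered 9 in MEL, 8 in spleen and 4 in testis. Of these, 8, 8 and 3 began at position 39979944, which is 57 nt before the window of the rule and 3354 nt before the first base of the span. That left end was thus shared by the 3 libraries, as was the first base of the span, and the rule's window leaves it out.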

How the results depend on the processing

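Of 49 recomputed values, 26 stayed within counting error (counts of bins, within 1.5 times) and 23 did not; 12 used settings chosen after seeing the data. The MEL to spleen ratio turned below 1 for reads of at least 18 nt (0.444) and of 24 to 32 nt (0.373), where for reads of at least 18 nt 2 bins in place of 0 were 4-fold or more higher in spleen. It was 3.83 by distinct interval, 1.22 without the most-read interval of each library and 5.83 without the most-read 100 bp. Counted by distinct interval, the level was 4667.6 RPM (MEL), 1218.9 (spleen) and 52.6 (testis); it was 3702.2 in MEL and 8337.3 in spleen for reads of at least 18 nt, and 2046.2 in spleen without the most-read interval. The 5 most-read ends held 24.3% in MEL with right ends, 41.8% in MEL and 95.4% in spleen with left ends within 2 nt joined, and 76.2% in spleen for reads of at least 18 nt. The order of the libraries, spleen above MEL, held in each of these settings. The 24 to 32 nt share was 27.0%, 16.2% and 52.9% in MEL, spleen and testis for 26 to 31 nt, 30.8% in spleen without its most-read interval, and 55.8% in MEL and 23.9% in spleen without the most-read 100 bp. The shared left ends of spleen fell to 38.5% without that bin. By construction these settings count fewer or other reads; other causes were not tested. No paired analysis was possible because each group has 1 library. At this depth 3 reads correspond to 3.64 RPM (MEL), 4.34 (spleen) and 2.62 (testis).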
